A study of Rattus norvegicus with 8 samples.

Results

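The genes Dnajb4, Hspb1, Hspb8 and Hspa4l encode 4 cytosolic heat shock chaperones, and they were taken by symbol from the 4226 genes of a deposited expression table of rat nucleus pulposus cells. All 4 were in the table and all 4 passed the filter on low values (mean over the 8 libraries no lower than 1 TPM), which left 2890 genes for testing. TPM is a level per transcript length, made comparable between libraries by a fixed library total. Heat shock chaperones hold or refold proteins that have lost their shape. The small heat shock proteins HSPB1 and HSPB8 bind unfolding proteins without ATP, J-domain proteins such as DNAJB4 deliver clients to HSP70 and start its ATPase, and HSP110 proteins such as HSPA4L exchange the nucleotide of HSP70 so that the client is let go. Nucleus pulposus cells sit in the compressed, acidic and poorly vascularised core of the intervertebral disc, a setting in which such proteins are known as part of the stress defence.

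The 8 libraries were bulk RNA-seq of nucleus pulposus cells from Rattus norvegicus after knockdown of SOD1, a cytosolic enzyme that disposes of superoxide. In the SOD1-K123R group (4 libraries) the cells were transfected with SOD1 carrying a lysine-to-arginine substitution, K123R, and in the SOD1-WT group (4 libraries) with wild-type SOD1. This second group is titled Ctrl and has the genotype label WT, and it was taken as the wild-type SOD1 arm because the design text names no other comparison arm. Knockdown and 10 mM lactate over 7 days are stated for the study as a whole, so both groups carry them, and no library without lactate was analysed here. Rat strain and age, the knockdown agent and the expression vector are not stated in the labels. Columns headed L belong to SOD1-K123R by their library names, and what L abbreviates is not said. The headings Ctrl and L could also be read as control and lactate, in which case the contrast would be of lactate and not of K123R. The sample labels give lactate for all 8 libraries, and the groups here follow the titles and genotype labels, a point the expression values were not used to settle. Library identifiers form 1 unbroken run in each group with a gap in between. The labels do not say what these numbers record, and anything that follows them cannot be told apart from group. Nothing in the labels says that replicates came from separate cultures, so a p-value covers the spread among these libraries, and that spread may be technical. Sod1 was not analysed here, and a part of SOD1 level in these results was not tested.

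The table's TPM summed to 24.0% ± 0.334 of a full library in SOD1-K123R and 19.3% ± 0.526 in SOD1-WT (SD, n = 4 each), so its genes are part of the transcriptome. Libraries correlated at 0.981 to 0.994 across genes within groups and at 0.788 to 0.818 between groups. Depth is unknown, because TPM keep no read counts. Of 16 markers listed for nucleus pulposus 7 were in the table, with summed levels of 32.1 to 49.3 TPM in SOD1-K123R and 24.4 to 29.3 TPM in SOD1-WT. Most of that sum in SOD1-K123R was Cd24, at 22.9 to 38.2 TPM in SOD1-K123R and 8.55 to 11.7 TPM in SOD1-WT. The 6 tested markers went both ways, with Cd24, Car12 and Sox9 higher and Car3, Cdh2 and Acan lower. Of the defining matrix genes, Acan lay at 0.5 to 0.72 TPM in SOD1-K123R and 1.23 to 2.16 TPM in SOD1-WT. Col2a1 lay at 0.02 to 0.08 TPM in SOD1-K123R and was listed at 0 in every SOD1-WT library. In bulk samples fewer cells of a type and less RNA per cell cannot be told apart.

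In SOD1-K123R cells the transcripts of Dnajb4, Hspb1 and Hspb8 rose and that of Hspa4l fell. Dnajb4 and Hspb1 reached 2.31-fold and 2.08-fold of their SOD1-WT means and Hspb8 1.55-fold, while Hspa4l stood at 0.446 of its SOD1-WT mean. For each of the 4 genes the groups did not overlap, as held for 91.4% of all tested genes. Each of the 4 passed the limma test (Benjamini-Hochberg adjustment over all 2890 genes, threshold 0.05), as did 95.7% of tested genes (44.6% higher and 51.1% lower), so passing does not set the 4 apart. The balance depended on level: of the 1896 genes with a mean of 5 TPM or more, fitted alone, 948 were higher and 897 lower.

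**Figure D1:**
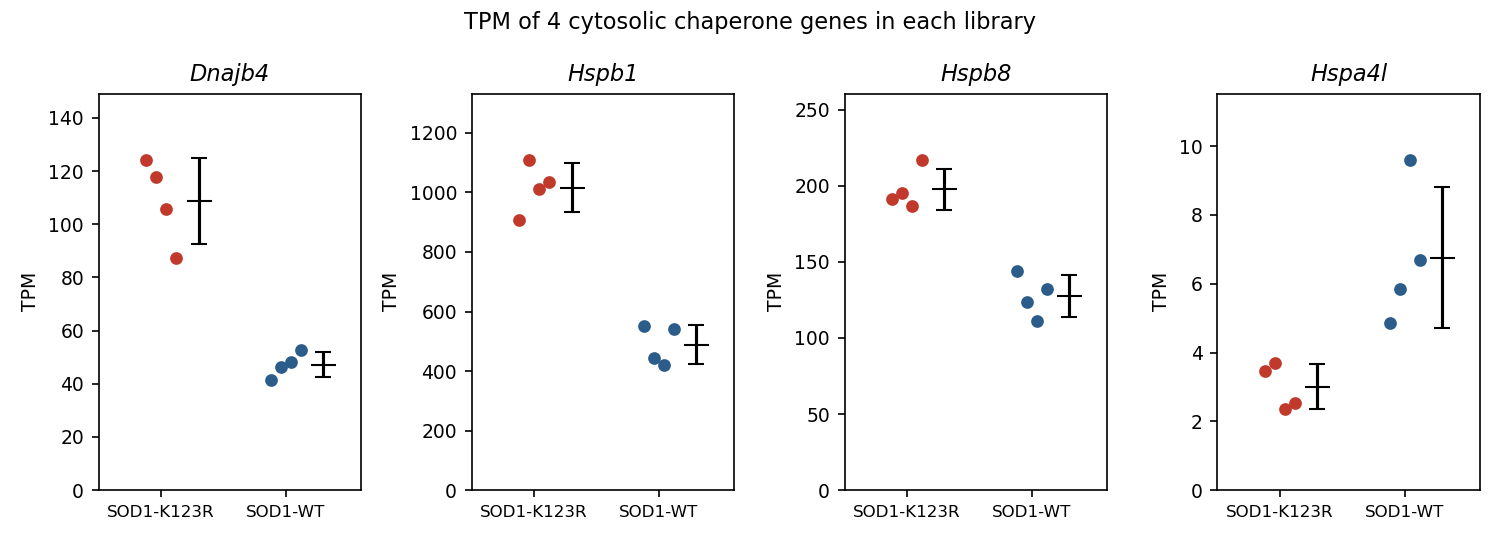
TPM (linear axes from 0) of Dnajb4, Hspb1, Hspb8 and Hspa4l in the 4 SOD1-K123R libraries (red) and the 4 SOD1-WT libraries (blue), with the mean and SD of each group in black. Points of the groups do not overlap in any panel: SOD1-K123R is higher for Dnajb4, Hspb1 and Hspb8 and lower for Hspa4l, where SOD1-WT replicate 3 is the highest point at 9.61 TPM.

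Hspb1 encodes the small heat shock protein known as HSP27 in human and HSP25 in rodents, a holdase whose oligomers change with phosphorylation and which also binds actin. It was the most abundant of the 4 in every library. Its level was 909.01, 1110.28, 1010.58 and 1034.33 TPM in SOD1-K123R replicates 1 to 4, against 551.24, 442.86, 421.8 and 540.42 TPM in SOD1-WT replicates 1 to 4. The lowest SOD1-K123R library thus stood well above the highest SOD1-WT library. The means were 1016 ± 83.1 TPM in SOD1-K123R and 489 ± 66.2 TPM in SOD1-WT (SD, n = 4 each). On the log2(TPM + 1) scale used for all fold changes the difference was 1.06 (SE 0.11, 95% interval 0.83 to 1.29, limma adjusted p = 7.98e-07). Among tested genes, 56.7% had a larger absolute change. After quantile normalization, which gives every library the same distribution of values, the difference was 0.58.

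Hspb8 encodes HSP22, a small heat shock protein that works with the co-chaperone BAG3 to pass damaged proteins to HSP70 and on to autophagy. Its level was 191.63, 195.24, 186.86 and 217.2 TPM in SOD1-K123R, against 144.03, 123.75, 111.45 and 132.09 TPM in SOD1-WT. The gap between the lowest SOD1-K123R library and the highest SOD1-WT library was narrower in proportion than for Hspb1. Hspb8 averaged 198 ± 13.4 TPM in SOD1-K123R and 128 ± 13.7 TPM in SOD1-WT (SD, n = 4 each), a log2 fold change of 0.63 (SE 0.09, 95% interval 0.43 to 0.83, limma adjusted p = 2.63e-05). This was a small change for the table, since 86.2% of tested genes had a larger absolute one. Its size moved with the scaling of the libraries: it was 1.07 after median-of-ratios scaling and 0.32 when each library was brought to the same table total, and it passed in both (highest adjusted p = 0.0107).

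The promoters of Hspb1 and Hspb8 are shown because these genes of 1 family rose together and heat shock factors bind DNA at repeats of the letters GAA, in alternating orientation. The windows are from RefSeq, build GRCr8, and run from 250 bases before to 50 bases after the start site, 5′ to 3′ on the gene's strand. Hspb1 is at chr12:26432252-26432551 on the minus strand and Hspb8 at chr12:45837058-45837357 on the plus strand. The start site of the Hspb8 window lies 1409 bases inside the RefSeq gene record, which begins farther upstream, so it is an internal start of that record, while that of Hspb1 is at the record's edge. Capitals mark each match to GAANNTTC, the motif searched together with TTCNNGAA. Each of these motifs reads the same on both strands, and matches to them can overlap each other.
Hspb1: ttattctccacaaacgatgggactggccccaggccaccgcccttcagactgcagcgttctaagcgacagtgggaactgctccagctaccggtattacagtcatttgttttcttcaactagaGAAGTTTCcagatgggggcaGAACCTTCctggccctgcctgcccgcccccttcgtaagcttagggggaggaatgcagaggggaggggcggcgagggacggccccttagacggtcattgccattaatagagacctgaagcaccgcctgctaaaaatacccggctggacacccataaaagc
Hspb8: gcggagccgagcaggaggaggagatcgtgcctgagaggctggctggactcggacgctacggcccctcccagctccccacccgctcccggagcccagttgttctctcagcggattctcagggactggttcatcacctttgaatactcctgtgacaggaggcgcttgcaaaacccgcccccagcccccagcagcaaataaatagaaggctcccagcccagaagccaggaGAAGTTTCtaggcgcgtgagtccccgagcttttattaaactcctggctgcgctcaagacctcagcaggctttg
Hspb1 held GAANNTTC at bases -129 to -122 and -109 to -102, and Hspb8 held it at bases -23 to -16, counted with -1 just before the start site. The match in Hspb8 and the farther match in Hspb1 share the same letters. Neither window held 3 alternating units (GAANNTTCNNGAA or TTCNNGAANNTTC). Of 33469 promoter windows of this length in the RefSeq table, 8.59% held GAANNTTC, 15.9% held GAANNTTC or TTCNNGAA and 0.798% held 3 units. Among 21 listed heat-induced genes with a window, 15 held GAANNTTC or TTCNNGAA and 7 held 3 units. Hspb1, Hspb8 and Hspa4l are themselves among the 21 and the 15. The window of Hspa4l held TTCNNGAA at bases 39 to 46 after the start site. RefSeq windows were thus at hand for 3 of the 4 genes. A match is a description of letters and not a measured binding site.

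Dnajb4 encodes a J-domain protein of the HSP40 type, a partner that stimulates the ATPase of cytosolic HSP70. Its level was 124.3, 117.72, 105.75 and 87.39 TPM in SOD1-K123R, against 41.34, 46.23, 48.16 and 52.86 TPM in SOD1-WT. The SOD1-K123R values were the more spread, with a coefficient of variation of 14.9% in SOD1-K123R and 10.1% in SOD1-WT. Means were 109 ± 16.2 TPM in SOD1-K123R and 47.1 ± 4.77 TPM in SOD1-WT (SD, n = 4 each), a log2 fold change of 1.18 (SE 0.12, 95% interval 0.93 to 1.43, limma adjusted p = 7.19e-07). This was the largest of the 4 changes, and 46.3% of tested genes had a larger absolute change. Ranked among the tested genes of its library, Dnajb4 lay at percentiles 90.9 to 93.1 in SOD1-K123R and 84.3 to 86.5 in SOD1-WT. The percentiles in SOD1-K123R were 98.5 to 98.6 for Hspb1, 95.1 to 95.5 for Hspb8 and 27.3 to 34.3 for Hspa4l. In SOD1-WT they were 97.7 to 98.2, 92.9 to 94.3 and 37.2 to 51.7 in that order.

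Hspa4l encodes an HSP110-family protein, a nucleotide exchange factor of HSP70 also named osmotic stress protein OSP94. It was by far the least abundant of the 4. Its level was 3.47, 3.69, 2.37 and 2.52 TPM in SOD1-K123R, against 4.87, 5.84, 9.61 and 6.7 TPM in SOD1-WT. The groups were separate, but SOD1-WT replicate 3 stood above the rest of its group. Hspa4l averaged 3.01 ± 0.664 TPM in SOD1-K123R and 6.76 ± 2.04 TPM in SOD1-WT (SD, n = 4 each), a log2 fold change of -0.93 (SE 0.18, 95% interval -1.33 to -0.53, limma adjusted p = 0.000338). The median change of all tested genes was -0.49, and 67.0% of tested genes had a larger absolute change than Hspa4l. Median-of-ratios scaling, which moved that median by 0.32, gave -0.57 for Hspa4l, and leaving out SOD1-WT replicate 3 gave -0.77, and it passed in both.

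**Figure D2:**
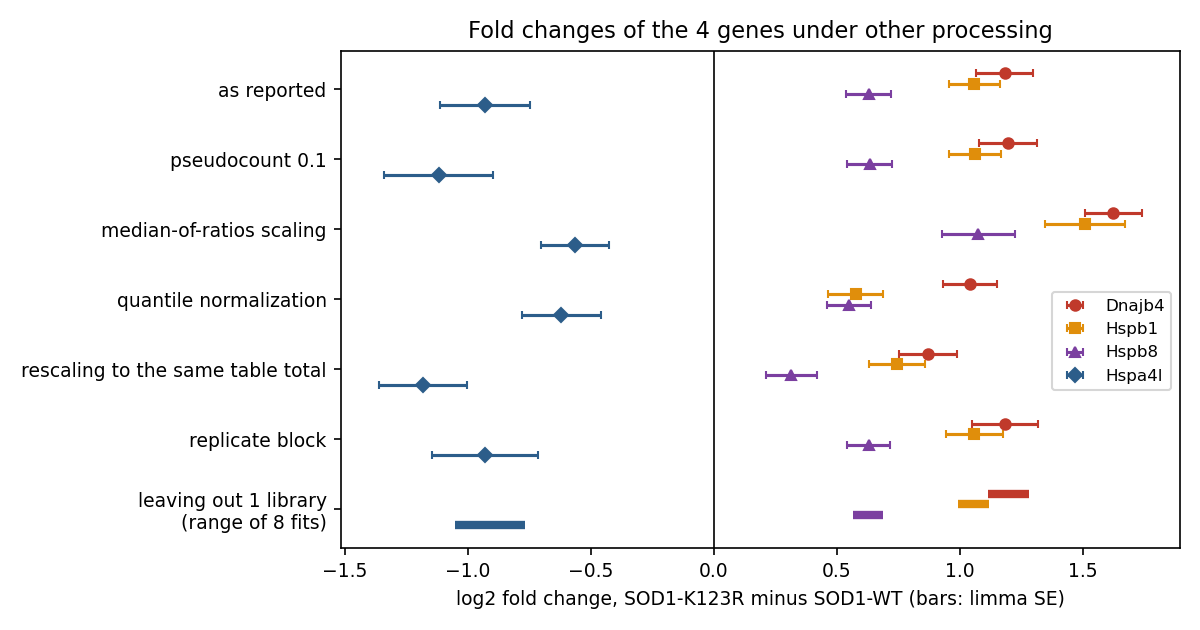
Log2 fold change (SOD1-K123R minus SOD1-WT) of the 4 genes on the x axis, as reported and under other processing on the y axis. Points are estimates with limma SE as bars, and thick bars are the range over 8 fits that each leave out 1 library. Dnajb4, Hspb1 and Hspb8 stay above 0 and Hspa4l below 0 in every fit shown, while Hspb1 ranges from 0.58 to 1.51 and Hspb8 from 0.32 to 1.07.

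The order of levels was Hspb1, Hspb8, Dnajb4 and Hspa4l in all 8 libraries. In SOD1-K123R the ranges were 909 to 1110.3, 187 to 217, 87.4 to 124 and 2.37 to 3.69 TPM in that order, and in SOD1-WT they were 422 to 551, 111 to 144, 41.3 to 52.9 and 4.87 to 9.61 TPM. No neighbours in the order overlapped within a group. The summed level of the 4 was 1326 ± 82.4 TPM in SOD1-K123R and 671 ± 77.1 TPM in SOD1-WT (SD, n = 4 each). Hspb1 made up 76.6% ± 1.74 of that sum in SOD1-K123R and 72.8% ± 1.52 in SOD1-WT, a difference of 3.80 percentage points. Hspb8 made up 14.9% ± 1.15 in SOD1-K123R and 19.1% ± 0.835 in SOD1-WT, and Hspa4l 0.228% ± 0.0506 in SOD1-K123R and 1.04% ± 0.414 in SOD1-WT. Dnajb4 made up 8.25% ± 1.47 in SOD1-K123R and 7.10% ± 1.09 in SOD1-WT. None of the 4 shares differed at an adjusted p under 0.05. The share of Hspb8 and that of Hspa4l did not overlap between groups but had an adjusted p of 0.0571 each (exact permutation test, two-sided, Benjamini-Hochberg over 4 shares), where 0.0286 is the smallest unadjusted p that 4 against 4 libraries allow.

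Whether the 4 genes changed by different amounts was tested on their log2 ratios within each library, which no scaling of a whole library can move. Of 6 pairs compared by exact permutation tests (two-sided, adjusted over the 6), 4 differed. The log2 ratio of Hspb1 to Hspb8 was 2.36 ± 0.132 in SOD1-K123R and 1.93 ± 0.0792 in SOD1-WT (SD, n = 4 each), a difference of 0.43 with no overlap (exact permutation, adjusted p = 0.0429). The unadjusted p was 0.0286 (exact permutation), the smallest that 4 against 4 libraries allow. Its adjusted p is under 0.05 only because the 3 ratios to Hspa4l, described next, share that smallest p. The rises of the 2 small heat shock proteins thus differed without overlap in the deposited values, but the adjusted p is weak support. After quantile normalization the difference was 0.02 (exact permutation, adjusted p = 0.686). The 3 ratios to Hspa4l rose by 2.34 for Dnajb4, 2.21 for Hspb1 and 1.78 for Hspb8, each without overlap (exact permutation, adjusted p = 0.0429 for each). Their separation and unadjusted p were fixed in advance, since Hspa4l fell and the other 3 genes rose, all without overlap. These 3 tests thus add nothing to the single-gene results. After quantile normalization the 3 differences became 1.81, 1.33 and 1.31 (exact permutation, adjusted p = 0.0571 for each). The adjusted p rose there because Hspb1/Hspb8 no longer shared the smallest exact p.

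For Dnajb4 the ratios to the small heat shock proteins did not pass. Its log2 ratio to Hspb1 was -3.23 ± 0.284 in SOD1-K123R and -3.37 ± 0.261 in SOD1-WT (SD, n = 4 each), a difference of 0.14 with overlapping groups (exact permutation, adjusted p = 0.457). Differences from -0.43 to 0.86 were not rejected by the exact test, so unequal changes of that size remain possible. Its log2 ratio to Hspb8 was -0.87 ± 0.305 in SOD1-K123R and -1.44 ± 0.256 in SOD1-WT (SD, n = 4 each), a difference of 0.57 with 1 SOD1-K123R library inside the SOD1-WT range (exact permutation, adjusted p = 0.0686, with -0.09 to 1.18 not rejected). That library was SOD1-K123R replicate 4, which had both the lowest Dnajb4 and the highest Hspb8 of its group.

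**Figure D3:**
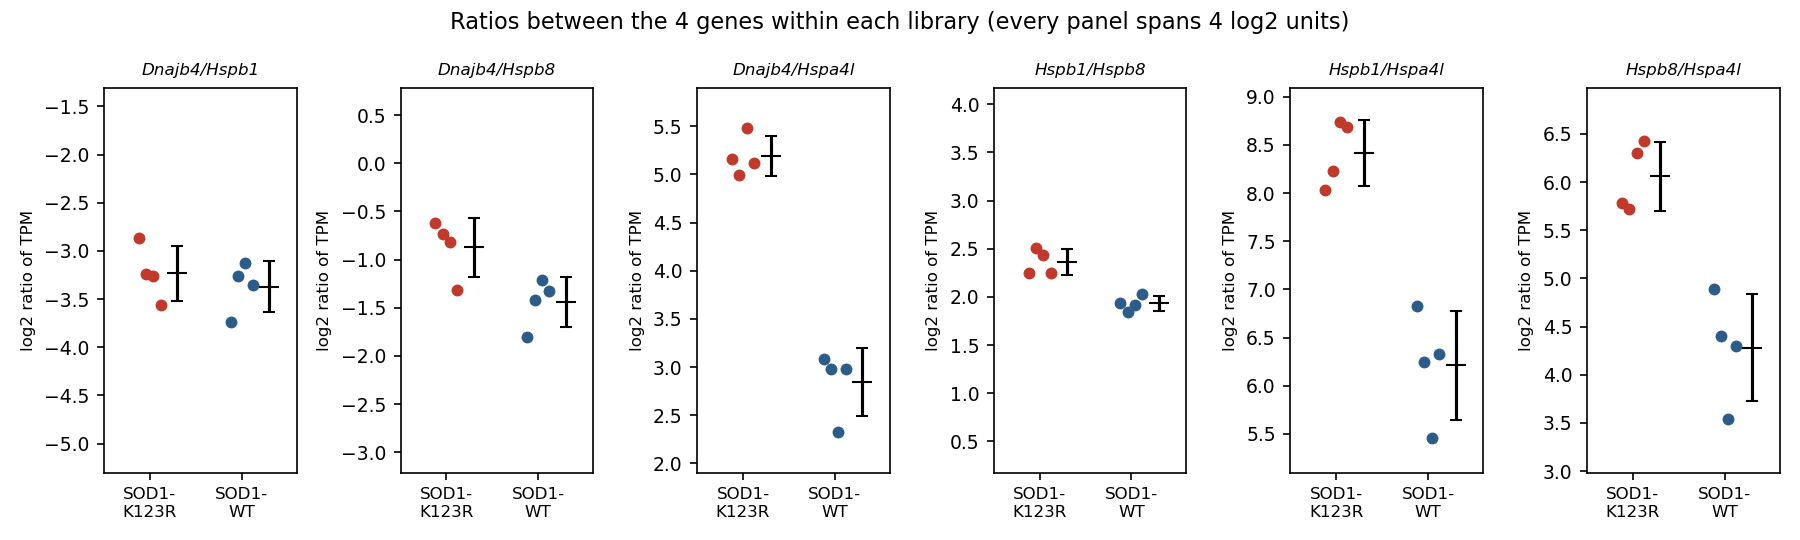
Log2 ratio of TPM between the 2 genes named above each panel, within each SOD1-K123R (red) and SOD1-WT (blue) library, with the mean and SD of each group in black; every y axis spans 4 log2 units. The groups are apart for Hspb1/Hspb8 and for the 3 ratios to Hspa4l, and overlap for Dnajb4/Hspb1 and Dnajb4/Hspb8.

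Among the small heat shock proteins the 2 abundant members rose and 2 scarce members fell. Of 10 listed, 6 were in the table and 5 were tested, of which 3 rose and 2 fell, against 44.6% and 51.1% of all tested genes. Hspb2, a small heat shock protein best known from heart and skeletal muscle, had 1.73, 4.13, 2.86 and 5.5 TPM in SOD1-K123R, against 8.09, 8.35, 9.47 and 8.69 TPM in SOD1-WT (log2 fold change -1.15, limma adjusted p = 0.000225). Hspb7, a member best known from heart, averaged 1.65 ± 0.347 TPM in SOD1-K123R and 3.76 ± 0.947 TPM in SOD1-WT (SD, n = 4 each; log2 fold change -0.84, limma adjusted p = 0.000242). Cryaa, alpha-A crystallin of the eye lens, was at 2.24 to 3.33 TPM in SOD1-K123R and at 0 to 0.11 TPM in SOD1-WT (log2 fold change 1.78, limma adjusted p = 4.61e-08). With a pseudocount of 0.1 the value for Cryaa was 4.06, and for Hspb7 median-of-ratios scaling gave -0.52 and quantile normalization -0.51. All 3 were thus scarce beside Hspb1. The summed TPM of 4 muscle markers of 15 listed (Acta2, Cnn1, Myh11 and Acta1) was also lower, at 396 to 520.3 in SOD1-K123R and 977 to 2120 in SOD1-WT. Most of that sum was Acta2, at 364 to 476 TPM in SOD1-K123R and 913 to 1997 TPM in SOD1-WT. Acta1 was scarce, at 0.15 to 0.56 TPM in SOD1-K123R and 0.72 to 1.51 TPM in SOD1-WT. The part of these markers in the fall of Hspb2 and Hspb7 was not tested.

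The HSP70 machinery on which DNAJB4 and HSPA4L act was thinly covered. Of 11 listed cytosolic HSP70 and HSP110 genes Hspa4l was the 1 tested, and Dnajb4 was the 1 tested of 14 listed DNAJA and DNAJB genes. Of the listed exchange factors and BAG proteins 4 of 12 were tested, 2 higher and 2 lower, Hspa4l being 1 of the lower ones. The shares over all tested genes were 44.6% higher and 51.1% lower. Bag3, the partner of HSPB8, rose to 134 ± 9.90 TPM in SOD1-K123R, against 90.5 ± 8.21 TPM in SOD1-WT (SD, n = 4 each; log2 fold change 0.57, limma adjusted p = 5.37e-05). The value for Bag3 was 1.01 after median-of-ratios scaling and 0.25 at the same table total, where it still passed (limma adjusted p = 0.0303). Bag4, which holds death receptor tails in check, rose (0.98, adjusted p = 0.000204). Bag2, an inhibitor of the ubiquitin ligase CHIP, fell to 24.9 ± 3.80 TPM in SOD1-K123R, against 72.0 ± 7.27 TPM in SOD1-WT (SD, n = 4 each; log2 fold change -1.50, limma adjusted p = 1.03e-07).

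In the route by which HSPB8 and BAG3 send cargo to autophagy, 5 of 11 listed genes were tested, 3 higher and 2 lower. Of all tested genes 44.6% were higher and 51.1% lower. Besides Hspb8 and Bag3, the cargo receptor gene Sqstm1 rose to 838 ± 44.3 TPM in SOD1-K123R, against 450 ± 30.6 TPM in SOD1-WT (SD, n = 4 each; log2 fold change 0.90, limma adjusted p = 3.00e-07). The value for Sqstm1 was 0.39 after quantile normalization and 0.58 at the same table total. Synpo2, an actin-associated BAG3 partner, fell to 3.24 ± 0.720 TPM in SOD1-K123R, against 9.26 ± 0.657 TPM in SOD1-WT (SD, n = 4 each). Its log2 fold change was -1.29 (limma adjusted p = 2.02e-06). The muscle markers given above fell with Synpo2 too, and their part in this was not tested.

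Kinases listed as acting on HSPB1 gave 2 tested genes of 12, and both rose, where 44.6% of all tested genes were higher. Mapkapk3, a kinase downstream of p38, averaged 24.2 ± 0.787 TPM in SOD1-K123R and 13.6 ± 0.846 TPM in SOD1-WT, and Prkd2, a protein kinase D, 18.9 ± 1.01 TPM in SOD1-K123R and 4.86 ± 0.514 TPM in SOD1-WT (SD, n = 4 each). Log2 fold changes were 0.78 and 1.77 (limma adjusted p = 2.58e-06 and 1.20e-08). Mapkapk3 was at 1.21 after median-of-ratios scaling and 0.49 at the same table total. Transcript levels do not show the phosphorylation of HSPB1.

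Of 19 listed genes of HSP90 and its co-chaperones 3 were tested, and these 3 fell, where 51.1% of all tested genes were lower: Nudc, also a dynein regulator, with a log2 fold change of -1.42, the CDC37 relative Cdc37l1 with -0.94 and the prolyl isomerase gene Fkbp5 with -0.82 (highest limma adjusted p = 8.80e-05). Nudc was at 76.0 ± 2.48 TPM in SOD1-K123R and 205 ± 5.69 TPM in SOD1-WT (SD, n = 4 each). After median-of-ratios scaling the log2 fold changes of Cdc37l1 and Fkbp5 were -0.51 and -0.42. The 3 tested genes of 32 in the DNAJC class also fell, against the same 51.1%. Dnajc11 (log2 fold change -1.58) and Dnajc30 (-1.30), which act in mitochondria, were among them (highest limma adjusted p = 3.92e-07). With a pseudocount of 0.1 the value for Dnajc30 was -2.06.

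**Figure D4:**
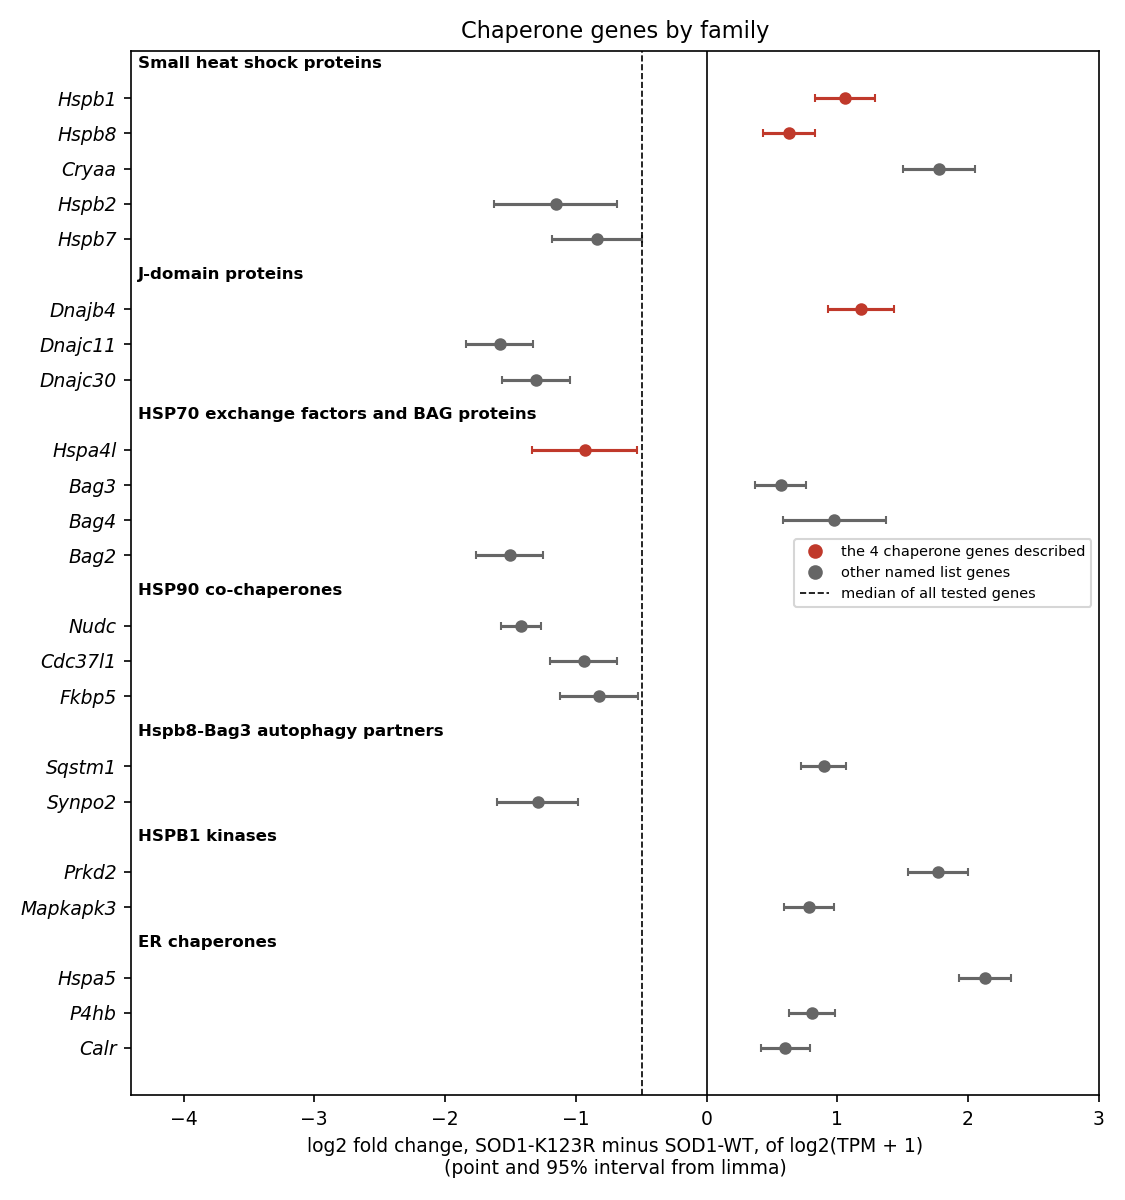
Log2 fold change (SOD1-K123R minus SOD1-WT, on log2(TPM + 1)) with 95% intervals from limma for the tested chaperone-list genes named in the text, grouped by family down the page. Dnajb4, Hspb1, Hspb8 and Hspa4l are red, other genes grey, and the dashed line is the median of all tested genes at -0.49. Small heat shock proteins and BAG proteins lie on both sides of 0, HSP90 co-chaperones below it, and endoplasmic reticulum chaperones above it.

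Chaperones of the endoplasmic reticulum gave 3 tested genes of 19, and these 3 rose, where 44.6% of all tested genes were higher: Hspa5, the HSP70 of that compartment (log2 fold change 2.13), the protein disulfide isomerase gene P4hb (0.81) and Calr, calreticulin (0.60; highest limma adjusted p = 2.16e-05). These 3 are abundant, and of the 1896 genes with a mean of 5 TPM or more 948 were higher and 897 lower. The call for Calr ended after quantile normalization (log2 fold change 0.01, limma adjusted p = 0.908), and P4hb stood at 0.26 there and passed. Median-of-ratios scaling gave 1.05 for Calr and 1.26 for P4hb, and rescaling to the same table total gave 0.29 for Calr and 0.49 for P4hb. Of 25 listed genes induced by heat through heat shock factor HSF1, 6 were tested, of which 5 rose and 1, Hspa4l, fell. Over all tested genes 44.6% were higher and 51.1% lower. Bag3, given above, was among those that rose. The median log2 fold change of these 6 was 0.62, against -0.49 for all tested genes and 0.27 for the 1896 genes with a mean of 5 TPM or more. The other 19 listed genes were not analysed here. Together the 13 chaperone lists held 167 genes, of which 25 were tested, 13 higher and 12 lower. Without Dnajb4, Hspb1, Hspb8 and Hspa4l there were 10 higher and 11 lower, with a median of -0.82. No gene of the heat shock factor, chaperonin or mitochondrial chaperone lists was analysed here.

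The genes most like each of the 4 were taken as those with the smallest root mean square difference between centred log2(TPM + 1) profiles over the 8 libraries. Nearest to Dnajb4 were Zbtb21 (0.0879), Hbp1 (0.0896) and Alkbh1 (0.0907). Nearest to Hspb1 were Nop53 (0.0821), Cdkn1c (0.0866) and Eif4b (0.0960), and nearest to Hspb8 were RT1-T24-4 (0.0458), Eif3f (0.0490) and Tsen54 (0.0523). Nearest to Hspa4l were Brca1 (0.0783), Map3k20 (0.0811) and Ifit2 (0.0901). None of these 12 is in the chaperone lists.

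Markers of other cell types were few and moved both ways beside these results. Summed TPM of 2 macrophage markers, nearly all of it Cd68, was 23.4 to 30.9 in SOD1-K123R and 5.44 to 8.04 in SOD1-WT, and that of 2 pericyte markers 22.8 to 30.9 in SOD1-K123R and 6.89 to 11.5 in SOD1-WT. Nearly all of the pericyte sum was Mcam, while Kcnj8 went the other way, at 0 to 0.04 TPM in SOD1-K123R and 0.4 to 0.81 TPM in SOD1-WT. Tendon and outer disc markers (Scx and Thbs4) summed to 17.0 to 21.7 TPM in SOD1-K123R and 34.6 to 55.2 TPM in SOD1-WT. Endothelial markers were near 0, at 0.47 to 0.67 TPM in SOD1-K123R and 0.08 to 0.39 TPM in SOD1-WT. The part of these markers in the levels of the 4 chaperone genes was not tested.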

How the data were processed

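RNA-seq of 8 libraries was analysed. The authors deposited 1 gene-level table of TPM, whose name gives RSEM as its source; DESeq2 is named without a role, per the submitters' processing notes. No source used here names the aligner, genome build, annotation or RNA selection. Total RNA was isolated with TRIzol and read in pairs on an Illumina NovaSeq, per the labels' protocols. The rule that chose the table's rows is unknown, and few had small changes (8.44% of tested genes had an absolute log2 fold change under 0.5).

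The 2890 of 4226 genes whose mean reached 1 TPM were transformed to log2(TPM + 1), which understates changes of low genes, and fitted with limma 3.58.1 (trend, two-sided, Benjamini-Hochberg over all tested genes) in R 4.3.3. Ratios and shares were compared by exact permutation of the 8 libraries. The code was tested on simulated data. List genes were matched by symbol, and the tested list genes are named, except a few that are not reported here, as are the 3 nearest profiles of each of the 4 genes. RefSeq promoter windows (GRCr8) were matched by symbol. Alternatives changed the pseudocount, the filter, the scaling, the moderation, the replicate block and the libraries. The 4 genes and the lists were chosen with earlier results of these data known.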

Additional observations from a re-analysis of the deposited data

Results flagged for a closer look

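In 5 of 94 groups of 4 libraries checked, 1 library lay far from the other three by Dixon's 95% critical value, which chance alone exceeds in about 5% of groups. The log2 ratio of Dnajb4 to Hspa4l was 2.33 in SOD1-WT replicate 3 and 2.98 to 3.09 in the rest of that group, the library with the highest Hspa4l. In SOD1-K123R replicate 3 Dnajc11 was at 11.4 TPM, with 15.8 to 16.4 TPM in the rest of the group, and Synpo2 at 2.16 TPM, with 3.54 to 3.65 TPM in the rest. Bag4 was at 15.9 TPM in SOD1-K123R replicate 1 and at 12.2 to 12.4 TPM in the rest of the group. Mapkapk3 was at 12.4 TPM in SOD1-WT replicate 3 and at 13.9 to 14.2 TPM in the rest of the group.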

How the results depend on the processing

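The 4 genes kept their direction and call in all 18 alternatives for Dnajb4, Hspb1 and Hspb8 and all 17 for Hspa4l. The ranges were 0.87 to 1.62 for Dnajb4, 0.58 to 1.51 for Hspb1, 0.32 to 1.07 for Hspb8 and -1.18 to -0.57 for Hspa4l, which is below the filter at 5 TPM and has no value there. Leaving out 1 library gave 1.11 to 1.28, 0.99 to 1.12, 0.57 to 0.69 and -1.05 to -0.77. For the 30 other named genes 503 of 504 refits kept the call, the exception being Calr after quantile normalization. At a mean of at least 5 TPM, 897 genes were lower and 948 higher, against 1476 and 1289. Fewer genes were tested there, and the balance of directions moved as well. Of the passing genes 51.4% were higher, against 46.6%, and the median log2 fold change of tested genes was 0.27, against -0.49. After quantile normalization the differences between pairs were 1.81 for Dnajb4/Hspa4l, 0.0227 for Hspb1/Hspb8, 1.33 for Hspb1/Hspa4l and 1.31 for Hspb8/Hspa4l, none passing. The ratios to Hspa4l stayed at the smallest exact p there, with an adjusted p of 0.0571 each (exact permutation). Their adjusted p rose because Hspb1/Hspb8 (exact permutation, adjusted p = 0.686) no longer shared that smallest p. The difference in the share of Hspb1 was -1.33 percentage points against 3.80. The cause of the changes in Hspb1/Hspb8 and in the share of Hspb1 was not tested.

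Same-numbered replicates did not pair: their deviations correlated at -0.35 to 0.05, and 0 of 4 SOD1-K123R libraries correlated best with their own number. With a replicate block in limma 1282 genes were higher and 1461 lower. The sign-flip test over 4 pairs left the differences at 2.34 for Dnajb4/Hspa4l, 0.43 for Hspb1/Hspb8, 2.21 for Hspb1/Hspa4l and 1.78 for Hspb8/Hspa4l, but an exact p cannot go below 0.125 there, and none passed. No depth is known, so limits from counting cannot be given.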

Other observations

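Genes chosen by the table's own annotation moved both ways. Over all tested genes 44.6% were higher and 51.1% lower. The median log2 fold change was -0.49 over all tested genes and 0.27 over the 1896 with a mean of 5 TPM or more. Of 18 tested genes annotated to protein folding, Dnajb4 and Hspb1 among them, 10 were higher, 7 lower and 1 did not pass (median log2 fold change 0.49). Of 11 annotated to unfolded protein binding, 6 were higher, 4 lower and 1 did not pass (median log2 fold change 0.60), and 4 of the 11 had no symbol. Of 18 annotated to response to heat, 8 were higher, 9 lower and 1 did not pass (median log2 fold change -0.31).

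A pair of genes outside the lists was singled out after the values were seen. Hspbap1, which encodes a protein named for binding HSPB1, averaged 10.8 ± 1.39 TPM in SOD1-K123R and 4.97 ± 0.809 TPM in SOD1-WT (SD, n = 4 each; log2 fold change 0.98, limma adjusted p = 1.44e-05). A gene with no symbol, ENSRNOG00000062985, which the table describes as a predicted copy of Hspa8, the constitutive cytosolic HSP70, averaged 23.4 ± 3.59 TPM in SOD1-K123R and 20.7 ± 3.86 TPM in SOD1-WT (SD, n = 4 each). Its groups overlapped, with a log2 fold change of 0.17 (95% interval -0.14 to 0.48, limma adjusted p = 0.249), and reads shared with near-identical HSP70 copies make its level uncertain. It was the 1 gene of the 11 annotated to unfolded protein binding that did not pass. The other genes without a symbol among those 11 passed and are not described here.

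Below the filter of 1 TPM, Dnajb3, a J-domain relative of Dnajb4, was at 0.208 ± 0.136 TPM in SOD1-K123R and 0.915 ± 0.306 TPM in SOD1-WT, and Hspa12b, a distant HSP70 relative, at 0.285 ± 0.0885 TPM in SOD1-K123R and 1.04 ± 0.0619 TPM in SOD1-WT (SD, n = 4 each). Hspb9 and Dnajc28 were below the filter too, and their groups overlapped. Hspb9 was at 0.438 ± 0.233 TPM in SOD1-K123R and 0.263 ± 0.0789 TPM in SOD1-WT. Dnajc28 was at 0.823 ± 0.277 TPM in SOD1-K123R and 0.91 ± 0.292 TPM in SOD1-WT (SD, n = 4 each).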
